A study of Mus musculus with 4 samples.

Results

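The 10 genes described here belong to blood clotting and plasminogen activation. They were followed in cells sorted from mouse wound beds on day 5, and 4 of them, Plaur, F3, F10 and F2r, were lower in CD301b macrophages than in immune cells negative for F4/80. The genes were F3, F5, F7, F10, F2r, F2rl1, Thbd, Tfpi, Plau and Plaur, taken by symbol from a table of 24358 genes, in which they hold 13 of 34535 transcripts. The cells came from the dermis of male C57/Bl6 mice, 7 weeks old, and were sorted by flow cytometry (FACS). One group was labelled as CD301b macrophages, which carry the lectin CD301b, and the other as F4/80neg, cells sorted as negative for the F4/80 protein, a marker of mouse macrophages. Each group had 2 libraries. No wound macrophages without CD301b and no unwounded skin were among the groups, so what belongs to the CD301b subset and what belongs to wound macrophages at large cannot be told apart.

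Clotting outside vessels starts when tissue factor, a membrane protein, binds factor VII, and the pair activates factor X. Factor X with its cofactor factor V then makes thrombin, which cuts fibrinogen into fibrin and also cuts protease-activated receptors on cells. Thrombomodulin and tissue factor pathway inhibitor hold this cascade back, and urokinase, bound to its receptor, turns plasminogen into plasmin, which dissolves fibrin. Fibrin forms the provisional matrix of a fresh wound, and macrophages can make several of these proteins themselves.

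Levels are FPKM, a read count per transcript length and library size, which allows genes to be compared per length. The authors' deposited table gives 1 FPKM for each transcript and population, so no spread between libraries accompanies any level, and the depth of each library is unknown. Transcripts of a gene were summed. A gene was called when a transcript had an adjusted p of at most 0.05 and the sum went the same way, where the adjusted p is a Benjamini-Hochberg adjustment, over all tested transcripts, of the p-values that Cuffdiff gave in the authors' deposited table. The smallest value that this adjustment allows is 0.000999. Counts at an unadjusted Cuffdiff p under 0.05 are also given, without the share of all genes at that threshold, so they cannot be set against it. No source used here says if separate animals gave the libraries, and the p-values may cover technical spread only. In bulk samples, fewer cells of a type and less RNA per cell cannot be told apart.

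The sorted populations were distinct but not pure by RNA. All 7 macrophage markers were higher in CD301b macrophages, with a summed level of 6207 FPKM against 2150 FPKM in F4/80-negative cells. Adgre1, which encodes F4/80, was among them, at 557 FPKM in CD301b macrophages, and at 151 FPKM it was present in the population sorted as negative for its protein. Mgl2, which encodes CD301b, went against the label and was 2.09-fold higher in F4/80-negative cells (103 FPKM) than in CD301b macrophages (49.2 FPKM). Markers of several other cell types were lower in CD301b macrophages. All 5 dendritic cell markers were lower there (summed 56.0 FPKM against 228 FPKM), as were 5 of 6 mast cell markers (19.7 against 56.2 FPKM). Of 4 tested neutrophil markers 3 were lower (2125 against 3847 FPKM over the 5 measured), a sum carried by S100a8 and S100a9. The neutrophil receptor genes differed little, with Csf3r, called lower on a transcript, at 68.1 against 71.3 FPKM, and Cxcr2, not called, at 27.3 against 25.7 FPKM. Monocyte markers were split (242 against 309 FPKM), with 2 of 4, Ly6c2 and Chil3, lower, while Ccr2 was at 153 against 110 FPKM with an unadjusted Cuffdiff p under 0.05. Of 7 fibroblast markers, 1 was lower (4211 against 6211 FPKM), and 5 were lower at an unadjusted Cuffdiff p under 0.05. Of 6 keratinocyte markers 1 was lower (156 against 197 FPKM), and 2 at an unadjusted Cuffdiff p under 0.05, whereas none of 6 endothelial markers was past the threshold, nor at an unadjusted Cuffdiff p under 0.05 (60.0 against 69.9 FPKM). None of these 39 measured markers was listed at 0 in either population. Their part in the results on the clotting genes was not tested.

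The 250 bases before the RefSeq start of the 4 genes that were lower in CD301b macrophages are shown because these genes were lower together (the start is that of the RefSeq promoter entry, GRCm38.p6, 5′ to 3′ on the gene's strand). Capitals mark matches, on either strand, to 6 motifs: AP-1 (TGANTCA), Sp1 (GGGCGG), Egr-1 (GTGGGCG), NF-kB (GGANTTTCC), PU.1 (GAGGAAG) and the TATA box (TATAAA).
F3 (chr3:121723287-121723536, + strand): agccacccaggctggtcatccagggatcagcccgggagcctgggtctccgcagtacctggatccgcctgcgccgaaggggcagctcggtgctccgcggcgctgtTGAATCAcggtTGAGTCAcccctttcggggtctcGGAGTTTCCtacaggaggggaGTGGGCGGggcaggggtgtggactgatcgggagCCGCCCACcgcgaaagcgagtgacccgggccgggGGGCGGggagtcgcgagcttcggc
Plaur (chr7:24462233-24462482, + strand): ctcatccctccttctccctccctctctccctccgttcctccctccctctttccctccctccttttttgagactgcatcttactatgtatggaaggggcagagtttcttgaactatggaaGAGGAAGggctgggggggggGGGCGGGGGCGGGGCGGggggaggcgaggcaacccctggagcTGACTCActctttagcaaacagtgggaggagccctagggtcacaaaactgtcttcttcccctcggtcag
F2r (chr13:95618467-95618716, - strand): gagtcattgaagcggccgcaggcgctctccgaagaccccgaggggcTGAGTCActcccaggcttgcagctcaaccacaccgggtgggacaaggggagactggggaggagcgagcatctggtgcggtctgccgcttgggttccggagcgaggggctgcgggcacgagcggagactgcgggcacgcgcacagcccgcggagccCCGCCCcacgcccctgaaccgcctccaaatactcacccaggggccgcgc
F10 (chr8:13037058-13037307, + strand): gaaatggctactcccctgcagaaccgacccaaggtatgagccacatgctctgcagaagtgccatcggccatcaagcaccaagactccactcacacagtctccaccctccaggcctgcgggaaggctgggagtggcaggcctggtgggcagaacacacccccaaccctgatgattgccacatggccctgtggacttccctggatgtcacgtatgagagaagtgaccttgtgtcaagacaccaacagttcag
Promoter entries were matched for 7 of the 10 genes, with 2 starts for Tfpi. F2rl1, Thbd and Plau were not matched. The Plaur entry starts at 24462483, which lies 1546 bases inside the RefSeq span of the gene, whereas NM_011113, the Plaur transcript of the table, starts at 24462484 in GENCODE. The F3 window held 2 AP-1 matches, from -146 to -140 and from -135 to -129 relative to the start, an NF-kB match from -112 to -104, 3 Sp1 matches and 2 Egr-1 matches, each of which overlaps an Sp1 match. The Plaur window held an AP-1 match from -69 to -63, 3 Sp1 matches and a PU.1 match, and 2 of its Sp1 matches share a base. The F2r window held an AP-1 match from -204 to -198 and an Sp1 match. The F2r entry starts at 95618466, but its transcript starts at 95618487 in GENCODE, upstream on its strand and inside the window shown. No motif of the 6 was found in the F10 window. An AP-1 match thus stood in 3 of the 4 windows shown and in none of the windows of F5, F7 and Tfpi. Sp1 matches also stood in 3 of the 4, but in the windows of F5 and Tfpi as well. PU.1 matched in Plaur and also in Tfpi, and Egr-1 and NF-kB matched in F3 alone. These contrasts cover few genes and were not tested. Of 32851 promoter windows of the same length, 6.75% held an AP-1 match, 32.7% an Sp1, 7.02% an Egr-1, 1.07% an NF-kB, 10.6% a PU.1 and 12.4% a TATA box match. These matches are letters in a window and no measurement of binding.

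**Figure D1:**
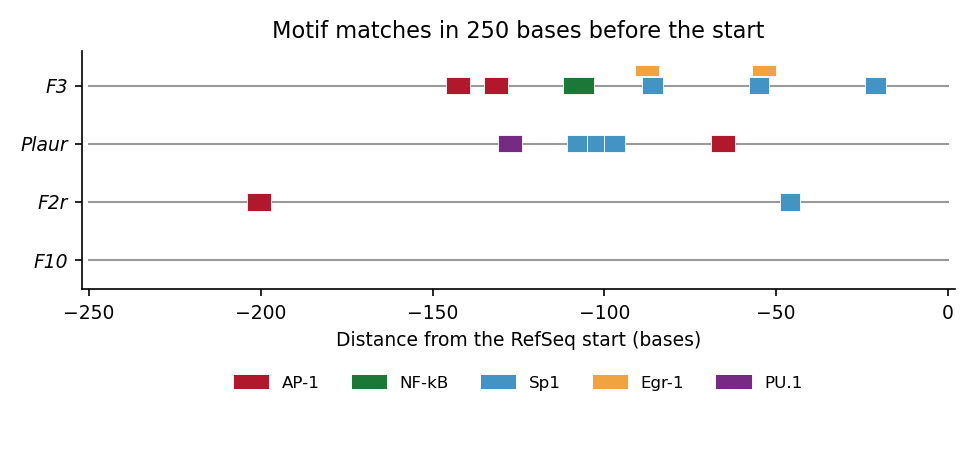
Motif matches in the 250 bases before the RefSeq start of 4 genes. The horizontal axis is the distance from the start in bases, each row is a gene, and coloured boxes are matches on either strand. F3 holds 8 matches, Plaur 5, F2r 2 and F10 none.

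Every one of the 10 genes had a tested transcript, so no gene was lost to the authors' test status. Of the 10, 4 were lower in CD301b macrophages, none was higher and 6 were not past the threshold. Without adjustment, 1 gene, Plau, had a p under 0.05 in the higher direction, by Cuffdiff in the authors' deposited table. Among all 13039 genes tested, 6.20% were lower by the same rule, and 1432 were higher. For the 10 genes the median difference on the log2(FPKM + 1) scale, CD301b macrophages minus F4/80-negative cells, was -0.28, and for all genes tested it was 0.05. Log2 differences given below are on that scale unless another pseudocount is named, whereas folds are ratios of FPKM. The scale understates the change of low genes.

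**Figure D2:**
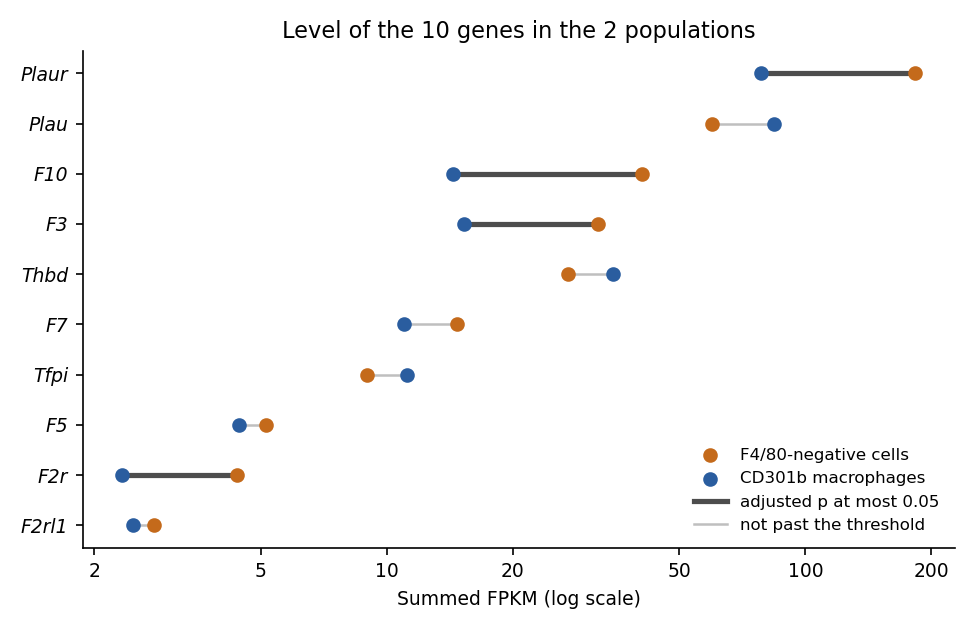
Summed FPKM of the 10 genes (horizontal, log scale), ordered by their level in F4/80-negative cells. Orange points are F4/80-negative cells, blue points CD301b macrophages, thick dark lines join genes past an adjusted p of 0.05 and thin grey lines the others. The 4 thick lines, Plaur, F10, F3 and F2r, all have the blue point on the left, and Plau, Thbd and Tfpi have it on the right.

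The initiators of clotting came first. F3, which encodes tissue factor (NCBI gene 14066, chromosome 3, 121723537 to 121735052, GRCm38), was at 32.0 FPKM in the F4/80-negative cells and 15.2 FPKM in the CD301b macrophages. F3 was thus 2.10-fold lower in the macrophages, with a difference in log2(FPKM + 1) of -1.02 (adjusted p = 0.000999, by Cuffdiff in the authors' deposited table). Its level stood at percentile 82.7 of the genes tested in the F4/80-negative cells and at percentile 66.7 in CD301b macrophages. F7, which encodes the factor VII that tissue factor binds (NCBI gene 14068, chromosome 8, 13025506 to 13035809), was at 14.7 FPKM in the F4/80-negative cells and 10.96 FPKM in the CD301b macrophages. F7 was not past the threshold (adjusted p = 0.23, by Cuffdiff in the authors' deposited table). Tissue factor and factor VII transcripts were therefore both present in both populations. The F3 level was 2.17 times that of F7 in the F4/80-negative cells and 1.39 times in CD301b macrophages, and the difference between these ratios was not tested.

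F10 encodes factor X, the protease at which the tissue factor route and the contact route meet (NCBI gene 14058, chromosome 8, 13037308 to 13056676). It had the largest fold difference of the 10 genes. Its summed level was 40.8 FPKM in the F4/80-negative cells and 14.4 FPKM in the CD301b macrophages, 2.84-fold lower in the macrophages (log2 difference -1.44). F10 lies 1498 bases downstream of F7 on the same chromosome. F10 was 2.77 times as high as F7 in the F4/80-negative cells and 1.31 times as high in CD301b macrophages. F5, which encodes factor V, the cofactor of factor X (NCBI gene 14067, chromosome 1, 164151835 to 164220277), was low in both populations, at 5.14 FPKM in the F4/80-negative cells and 4.44 FPKM in the CD301b macrophages, not past the threshold (adjusted p = 0.66, by Cuffdiff in the authors' deposited table). The first 383 bases of the F5 gene overlap the long noncoding gene Gm16548, and since the use of strand in counting is not given, reads there may not be told apart.

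The F10 call rested on 1 of its 2 transcripts. NM_001242368 was at 31.3 FPKM in the F4/80-negative cells and 8.98 FPKM in the CD301b macrophages, 3.49-fold lower (adjusted p = 0.000999, by Cuffdiff in the authors' deposited table). NM_007972 was at 9.46 and 5.38 FPKM and was not past the threshold (adjusted p = 0.47 by Cuffdiff in the authors' deposited table). The first transcript made up 76.8% of the F10 level in the F4/80-negative cells and 62.6% in CD301b macrophages, and this shift in share was not tested. The transcripts differ at both ends in the GENCODE annotation of GRCm38. In NM_001242368, of 1903 bases, the second exon begins 190 bases earlier, and in NM_007972, of 2503 bases, the last exon runs 776 bases further. NM_001242368 has its start codon further upstream, which adds 36 coding bases (12 codons) that are shown here because they separate the coding sequences of the 2 transcripts. Capitals mark the 13 bases absent from NM_007972, and the 23 bases in lower case lie before the start codon of that transcript.
F10 coding extension (chr8:13037802-13037837, + strand, GRCm38): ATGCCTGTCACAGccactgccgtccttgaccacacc
Beyond these 36 bases the 2 coding sequences share their end, and the split of F10 reads between the transcripts rests on the parts that differ.

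**Figure D3:**
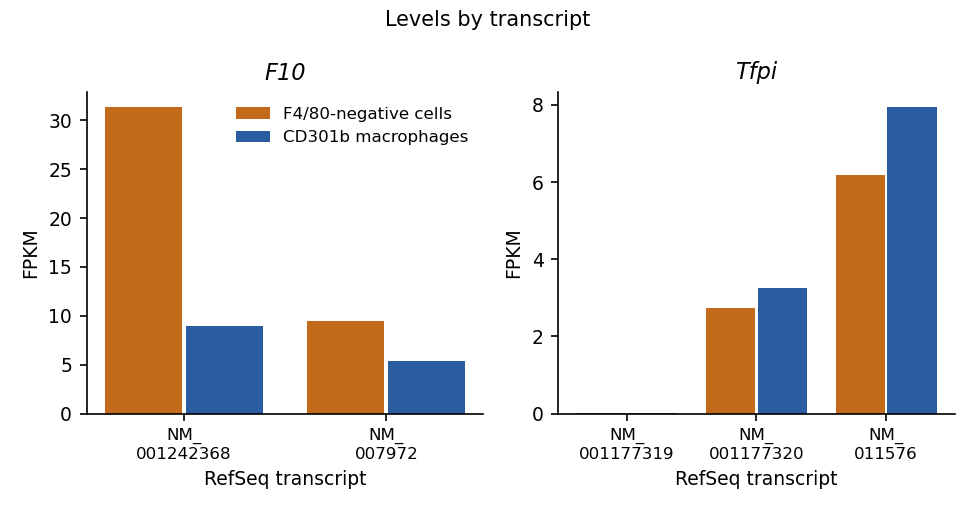
FPKM of each RefSeq transcript of F10 (left) and Tfpi (right) on linear axes from 0, with orange bars for F4/80-negative cells and blue bars for CD301b macrophages. No error bars are drawn, since the table holds 1 value per population. The tallest F10 bar is 31.3 FPKM, and the blue bar beside it is 8.98 FPKM.

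Neither inhibitor of the cascade was past the threshold. Thbd, which encodes thrombomodulin, the surface protein that turns thrombin into an activator of protein C (NCBI gene 21824, chromosome 2, 148404471 to 148408188), was at 27.1 FPKM in the F4/80-negative cells and 34.8 FPKM in the CD301b macrophages (adjusted p = 0.24, by Cuffdiff in the authors' deposited table). Tfpi, which encodes the inhibitor of factor X and of the tissue factor and factor VII pair (NCBI gene 21788, chromosome 2, 84432855 to 84476775), was at 8.95 FPKM in the F4/80-negative cells and 11.2 FPKM in the CD301b macrophages (smallest adjusted p of its transcripts 0.34, by Cuffdiff in the authors' deposited table). F3 was 3.57 times as high as Tfpi in the F4/80-negative cells and 1.36 times as high in CD301b macrophages. F3 was 1.18 times as high as Thbd in F4/80-negative cells, whereas Thbd was 2.28 times as high as F3 in CD301b macrophages. These ratios are a description of 1 value per population and have no test.

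Tfpi was carried by 2 forms in similar shares in both populations. NM_011576, with 918 coding bases, held 69.1% of the Tfpi level in the F4/80-negative cells and 70.9% in CD301b macrophages, at 6.19 and 7.94 FPKM. NM_001177320, with 705 coding bases and another last coding exon, held 30.7% and 29.0%, at 2.74 and 3.24 FPKM. The third transcript, NM_001177319, has the same coding length as the second and was not tested, at 0.0162 FPKM in the F4/80-negative cells and 0.0104 FPKM in the CD301b macrophages.

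The receptors that read thrombin and related proteases were the lowest of the 10 genes. F2r, which encodes the thrombin receptor PAR1 (NCBI gene 14062, chromosome 13, 95601780 to 95618466), was at 4.37 FPKM in the F4/80-negative cells and 2.33 FPKM in the CD301b macrophages. That is 1.87-fold lower in the macrophages, with a difference in log2(FPKM + 1) of -0.69 (adjusted p = 0.00458, by Cuffdiff in the authors' deposited table). F2rl1, which encodes PAR2, a receptor cut by trypsin-like proteases and by the tissue factor and factor VII pair (NCBI gene 14063, chromosome 13, 95511718 to 95525240), was at 2.78 FPKM in the F4/80-negative cells and 2.47 FPKM in the CD301b macrophages, not past the threshold (adjusted p = 0.70, by Cuffdiff in the authors' deposited table). The 2 receptor genes lie 76.5 kb apart. F2r stood at percentile 37.3 of tested genes in the F4/80-negative cells and at 24.6 in CD301b macrophages, and F2rl1 at 27.6 and 25.5.

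Of urokinase and its receptor, only the receptor was called. Plaur, which encodes the urokinase receptor (NCBI gene 18793, chromosome 7, 24460937 to 24475970), was the highest of the 10 genes in F4/80-negative cells, at 183 FPKM, and was at 78.1 FPKM in the CD301b macrophages. It was 2.34-fold lower in the macrophages, with a log2 difference of -1.22 (adjusted p = 0.000999, by Cuffdiff in the authors' deposited table). Plau, which encodes urokinase itself (NCBI gene 18792, chromosome 14, 20836662 to 20843388), was at 59.8 FPKM in the F4/80-negative cells and 84.2 FPKM in the CD301b macrophages, a ratio of 1.41. Plau was not past the threshold after adjustment (adjusted p = 0.0756, unadjusted p = 0.0131, by Cuffdiff in the authors' deposited table). The receptor was 3.06 times as high as its ligand in F4/80-negative cells. In CD301b macrophages the ligand was 1.08 times as high as the receptor, and Plau was the highest of the 10 genes. No test of this change in ratio could be made from 1 value per population.

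Both populations kept a similar order of levels. In F4/80-negative cells it ran from Plaur through Plau, F10, F3, Thbd, F7, Tfpi, F5 and F2r to F2rl1. In CD301b macrophages it ran Plau, Plaur, Thbd, F3, F10, Tfpi, F7, F5, F2rl1 and F2r, so that F10 moved from the third place to the fifth and Thbd from the fifth to the third. With no spread between libraries, it cannot be said which neighbours in either order differ.

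**Figure D4:**
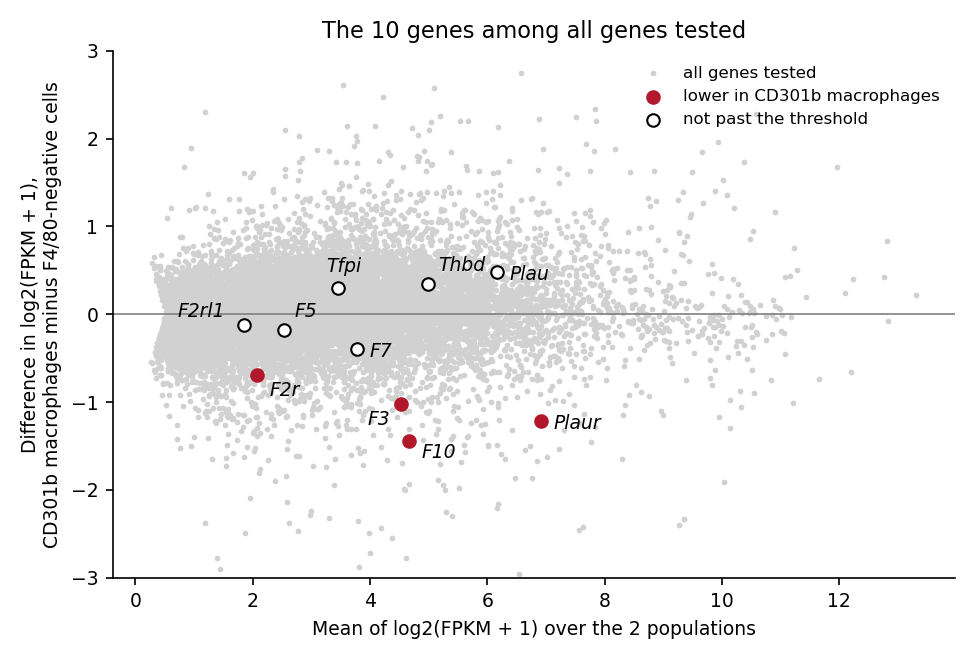
Difference in log2(FPKM + 1), CD301b macrophages minus F4/80-negative cells, against the mean of log2(FPKM + 1) over both populations, for all genes tested (grey), with the 4 genes that were lower in red and the other 6 as open circles. The vertical axis ends at 3 in both directions and leaves out 70 genes. F10 and Plaur lie lowest, at -1.44 and -1.22, and the open circles lie within the grey cloud.

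Other genes of clotting and fibrinolysis were listed by role, 60 in all, of which 41 had a tested transcript. Of these 41, 7 were higher and 5 lower in CD301b macrophages, and 29 missed the threshold, with a median log2 difference of -0.04. In the same comparison 17.2% of all genes tested were called in either direction.

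Among 17 clotting factors and proteins that process them, 6 were tested and 1 was higher. F13a1, the factor XIII subunit that crosslinks fibrin, was at 399 FPKM in the CD301b macrophages and 104 FPKM in F4/80-negative cells, 3.86-fold higher. Its level in the macrophages exceeded that of each of the 10 genes. The enzymes and carriers that clotting factors need were nearly level. Vkorc1, which recycles vitamin K, was at 68.4 FPKM in the F4/80-negative cells and 64.9 FPKM in the CD301b macrophages, and Ggcx, the vitamin K dependent carboxylase, at 4.46 and 4.50 FPKM. F2 (prothrombin), F13b, Fga, Fgb and Fgg (the fibrinogen chains) were listed at 0 in both populations. The hepatocyte markers Alb, Ttr and Apoa1 were at most 0.0757 FPKM. Apart from F13a1, the genes named from this list were chosen after their values were seen.

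Of 10 anticoagulant genes 5 were tested and 1 was lower. Procr, the receptor that presents protein C to thrombin and thrombomodulin, was at 17.5 FPKM in the F4/80-negative cells and 7.05 FPKM in the CD301b macrophages, 2.48-fold lower. At an unadjusted Cuffdiff p under 0.05, 2 were lower and none was higher. The second was Tfpi2, at 11.9 FPKM in the F4/80-negative cells and 8.02 FPKM in the CD301b macrophages. Proc and Serpina5, also picked after their values were seen, were listed at 0 in both. Of 10 further genes of the plasminogen system, 8 were tested, 2 were lower and none was higher, with a median log2 difference of -0.34. At an unadjusted Cuffdiff p under 0.05, 3 were lower and none was higher, with no share of all genes at that threshold to set beside this. Plat, the tissue plasminogen activator, was at 48.2 FPKM in the F4/80-negative cells and 27.4 FPKM in the CD301b macrophages (adjusted p = 0.00182, by Cuffdiff in the authors' deposited table). S100a10, a subunit of the annexin A2 complex that binds plasminogen, was at 687 and 467 FPKM in the same order (adjusted p = 0.0419, by Cuffdiff in the authors' deposited table). Plat was thus lower together with Plaur, while Plau was not. Plg and Cpb2, chosen after their values were seen, were listed at 0 in both populations. Plg encodes plasminogen, the protein that these activators cut.

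Of 9 partners and clearance receptors of the urokinase receptor, all tested, 1 was higher in CD301b macrophages, 1 lower, and 7 missed the threshold. Itgam, the CD11b chain of an integrin that binds the urokinase receptor and fibrinogen, was at 154 FPKM in the F4/80-negative cells and 240.0 FPKM in the CD301b macrophages, 1.56-fold higher. Itgb3, the integrin beta 3 chain, was at 6.96 and 4.34 FPKM, 1.60-fold lower in the macrophages (adjusted p = 0.0155, by Cuffdiff in the authors' deposited table), a call that ended at a threshold of 0.01. Itgam was thus higher in CD301b macrophages and Plaur lower.

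Of 8 other protease-activated receptors, G proteins and arrestins, 7 were tested, 3 were higher in CD301b macrophages and none was lower. At an unadjusted Cuffdiff p under 0.05, 1 was lower, the receptor gene F2rl2, at 1.37 FPKM in the F4/80-negative cells and 0.545 FPKM in the CD301b macrophages, which lies within the larger gene Iqgap2. Gna12, a G protein through which PAR1 acts on the cytoskeleton, was at 65.9 FPKM in the CD301b macrophages and 23.5 FPKM in F4/80-negative cells, 2.80-fold higher. Gnaq, the G protein that links PAR1 to calcium release, was 1.54-fold higher at 21.2 FPKM (adjusted p = 0.0186, by Cuffdiff in the authors' deposited table). Arrb2, beta-arrestin 2, was 1.35-fold higher by its sum, and the call rested on a minor transcript at 16.6 FPKM in the CD301b macrophages and 8.54 FPKM in F4/80-negative cells. Its main transcript, at 126 and 90.7 FPKM, had an adjusted p of 0.10 (by Cuffdiff in the authors' deposited table). F2r was thus lower while Gna12 was higher, and the calls of Gnaq and Arrb2 ended at a threshold of 0.01.

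Of 6 genes for membrane and thiol control of clotting, 2 were higher in CD301b macrophages, 1 lower, and 3 missed the threshold. Ano6, the scramblase that exposes the phosphatidylserine on which clotting factors assemble, was at 42.5 FPKM in the CD301b macrophages and 26.1 FPKM in F4/80-negative cells, 1.63-fold higher (adjusted p = 0.0111, by Cuffdiff in the authors' deposited table), which also missed a threshold of 0.01. Cd36, a receptor of thrombospondin and oxidised lipids, was 1.74-fold higher at 143 FPKM. Plscr1, an interferon-induced protein named phospholipid scramblase 1, was at 9.04 FPKM in the CD301b macrophages and 19.4 FPKM in F4/80-negative cells, 2.14-fold lower.

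**Figure D5:**
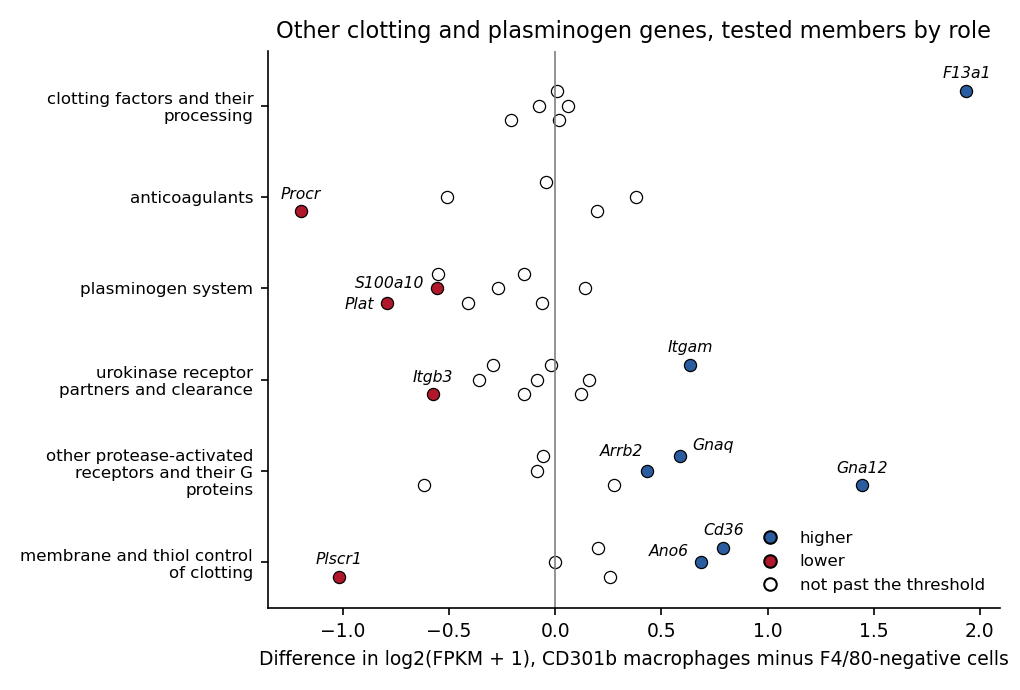
Difference in log2(FPKM + 1), CD301b macrophages minus F4/80-negative cells, for the 41 tested genes of 6 role lists, 1 row per list. Blue points are genes higher in CD301b macrophages, red points lower, and open points not past the threshold, and vertical scatter within a row has no meaning. The plasminogen row holds 2 red points and no blue one, and F13a1 at 1.94 is the point farthest to the right.

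Markers of platelets were examined because platelets carry F13a1 and clotting proteins. Pf4 was at 1048 FPKM in the CD301b macrophages and 399 FPKM in F4/80-negative cells, and Ppbp at 90.6 and 34.7 FPKM, both higher in the macrophages. The 4 other platelet markers were each below 1 FPKM in both populations, and Gp9 was listed at 0 in CD301b macrophages. Among them Itga2b, not past the threshold, went the other way from Pf4 and Ppbp at an unadjusted Cuffdiff p under 0.05. It was at 0.512 FPKM in the CD301b macrophages and 0.929 FPKM in F4/80-negative cells. T cell markers were low, with a summed level of 2.19 FPKM over 3 measured genes in CD301b macrophages and 2.52 FPKM in F4/80-negative cells.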

How the data were processed

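Sorted cells of 2 populations, 2 libraries each, were sequenced as mRNA with an Illumina TruSeq protocol, per the labels' protocols. TopHat2 2.0.2, Cuffdiff 2.0.2 and the build mm9 appear in the submitters' processing notes. For counting settings, strand use and the way libraries were combined, nothing is given in the sources used here. The authors deposited 1 FPKM per transcript and population and an unadjusted p-value with a lower limit of 5e-05, per the file headers and values. Their log2 fold column held errors in 1788 cells and was not used.

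Of the table's accessions, 97.1% were found in RefSeq on GRCm38.p6, and 99.2% of those overlapped their gene there, so positions are given on GRCm38, counted from 1. Symbols turned into dates (56 transcripts) were restored by accession. The p-values of 16921 tested transcripts were adjusted by the Benjamini-Hochberg method. The resulting calls equalled the deposited ones in all 34535 transcripts. A gene with passing transcripts in both directions, or against its summed FPKM, was not called. The calling rule was tested on simulated data with large planted changes. These data did not imitate the spread between libraries, so the calls themselves were not tested. Python 3.11.15, pandas 2.3.3, numpy 2.4.6 and matplotlib 3.10.9 were used.

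The members, lists and tests were chosen with earlier results of these data known. 1 gene of the plasminogen list is not reported here and was left out of its counts. Named beside the 10 genes were called list genes at 5 FPKM or more, at most 4 per list, or the 2 most abundant of a list with no call. Tfpi2 and F2rl2 were named outside this rule, for an unadjusted Cuffdiff p under 0.05. Vkorc1, Ggcx, F2, F13b, Fga, Fgb, Fgg, Proc, Serpina5, Plg and Cpb2 were also outside it, chosen after their values were seen. No gene was named for likeness to a member, since 2 values per gene give only a ratio. The alternatives tried were other pseudocounts, a stricter threshold, the most abundant transcript alone, a floor on level and median scaling.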

Additional observations from a re-analysis of the deposited data

How the results depend on the processing

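The 4 lower and 0 higher calls among the 10 genes were the same in number at an adjusted p of 0.01 and from the most abundant transcript alone, which can differ only for F10 and Tfpi. A floor of 1 FPKM could remove none of them, and the authors' deposited calls are the same calls. Scaling both populations to their median gene turned the direction of none of the 10. At an adjusted p of 0.01, all genes called fell from 1432 to 848 higher and from 808 to 461 lower, and the other clotting and plasminogen genes from 7 to 4 higher (without Gnaq, Arrb2 and Ano6) and from 5 to 3 lower (without Itgb3 and S100a10), since the threshold was stricter. The median log2 difference of the 10 genes was -0.31 with a pseudocount of 0.1 FPKM and -0.38 with both populations scaled to their median gene, which lowers the macrophage values by 0.11 on the log2 scale. The p-values cannot be recomputed under that scaling. No paired analysis was possible because the table holds 1 value per population, and for the same reason no library could be left out. Depth is unknown, which limits what can be said of the lowest genes, F2r and F2rl1.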
